A study of Rattus norvegicus with 8 samples.

Results

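The mitochondrial carriers of the SLC25 family were described in oligodendrocyte precursor cells, the dividing glia that give rise to myelinating oligodendrocytes. Every gene whose symbol begins with Slc25a was taken, together with Ucp2 and Ucp3, which belong to the same family, with the row of highest mean kept for each symbol. This gave 49 genes of the 32662 in the table. The cells were primary cultures from the cerebral cortex of Sprague Dawley rats aged 1 to 2 days, collected as the non-adherent cells of mixed glial cultures that had been kept in DMEM with 20% FBS. All 8 samples then spent 4 to 5 days in Neurobasal medium, to which FGF and PDGF (10 ng/ml each), B27 (2%), glutamine (2 mM) and penicillin/streptomycin (1%) had been added. The 4 Control samples stayed under normal conditions, and the 4 OGD samples were placed under oxygen glucose deprivation, a culture model of ischaemia, for 6 h. The labels do not state whether the 4 samples per condition came from independent cultures, and the p-values therefore reflect the spread among these libraries alone, which may be technical.

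SLC25 proteins sit almost all in the inner mitochondrial membrane, where each moves a small set of solutes between the cytosol and the matrix. They bring in ADP, phosphate and the acids that feed respiration, and they send out ATP and the building blocks made in the matrix. The aspartate/glutamate carrier encoded by Slc25a12 is known in the brain for its part in the malate-aspartate shuttle, and its loss impairs myelination. The comparison between OGD and Control samples asked which carrier transcripts differed after 6 h of deprivation.

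Values were FPKM, in which gene length and library total are divided out, so levels may be compared between genes. The 8 libraries had relative depths of 0.816 to 1.18 (Control 1 set to 1), and absolute depth is unknown. Mitochondrially encoded genes took a share of 25.1% to 27.9% of all FPKM in Control libraries and 20.4% to 30.4% in OGD libraries. OGD 1 and OGD 2 had relative depths of 0.928 and 0.816 and shares of 29.6% and 30.4%. OGD 3 and OGD 4 had depths of 1.14 and 1.18 and shares of 23.4% and 20.4%. Of the 8 markers of oligodendrocyte precursors all passed the filter, with summed levels of 2218 to 2351 FPKM in Control and 1447 to 1658 FPKM in OGD. The 5 that fell, beside 26.8% of all tested genes, included Olig1 and Ptprz1, and the other 3 did not pass the test. Summed levels of 11 microglial markers, led by C1qa and C1qc, were 200.6 to 328.6 FPKM in Control and 64.9 to 119.2 FPKM in OGD. All 11 were tested and 10 fell, beside 26.8% of all tested genes, but Cx3cr1 and Ptprc passed the filter through Control libraries alone and so had to differ. Sums of 7 astrocyte markers, led by Sparcl1 and Sox9, were 102.4 to 111.2 and 102.3 to 116.9 FPKM. Of the 5 tested, 0 rose and Gfap fell, which passed the filter through Control libraries alone and so had to differ. Sums of 7 neuronal markers, led by Map2 and Syn1, were 275.5 to 340.9 and 268.5 to 346.2 FPKM. Of these 7, 2 rose and 2 fell, beside 22.7% and 26.8% of all tested genes. The 6 vascular and stromal markers, led by Kdr and Cdh5, summed to at most 0.587 FPKM in any library.

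Of the 49 carriers, 35 passed the filter of at least 1 FPKM in at least 4 libraries and were tested. OGD raised 7 of them (20.0%) and lowered 7 (20.0%), while 22.7% and 26.8% of all 11149 tested genes rose and fell (limma on log2(FPKM + 1), Benjamini-Hochberg adjustment over all tested genes, threshold 0.05). In both directions together, 40.0% of the tested carriers and 49.5% of all tested genes were called, and this difference was not tested. For 13 of the 35 (37.1%) the 2 groups did not overlap, against 44.7% of all tested genes. OGD lay above Control in 7 of the 35 and below in 6 of the 35, against 20.7% and 24.1% of all tested genes. Of the 35 tested carriers, 9 were called with a log2 change of at least 0.5 in either direction, as were 23.4% of all tested genes. The median log2 change was -0.06 over the tested carriers and -0.04 over all tested genes, and the median size of change without its sign was 0.29 and 0.28. Among the carriers that rose were Slc25a27, Slc25a33, Slc25a38, Slc25a28, Slc25a32 and Slc25a14. Those that fell were Ucp2, Slc25a2, Slc25a29, Slc25a15, Slc25a39, Slc25a20 and Slc25a23. Log2 changes below are on the log2(FPKM + 1) scale, which understates the change of low genes, while a fold between means is the ratio of mean FPKM. Of the carriers that passed, Slc25a2, Slc25a14, Slc25a15, Slc25a20 and Slc25a33 each overlap another gene in RefSeq, and the use of strand is not given, so their values are uncertain. The same holds for several that did not pass, among them Slc25a5, Slc25a16, Slc25a26, Slc25a40 and Slc25a42. The largest fall was that of Ucp2.

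**Figure D1:**
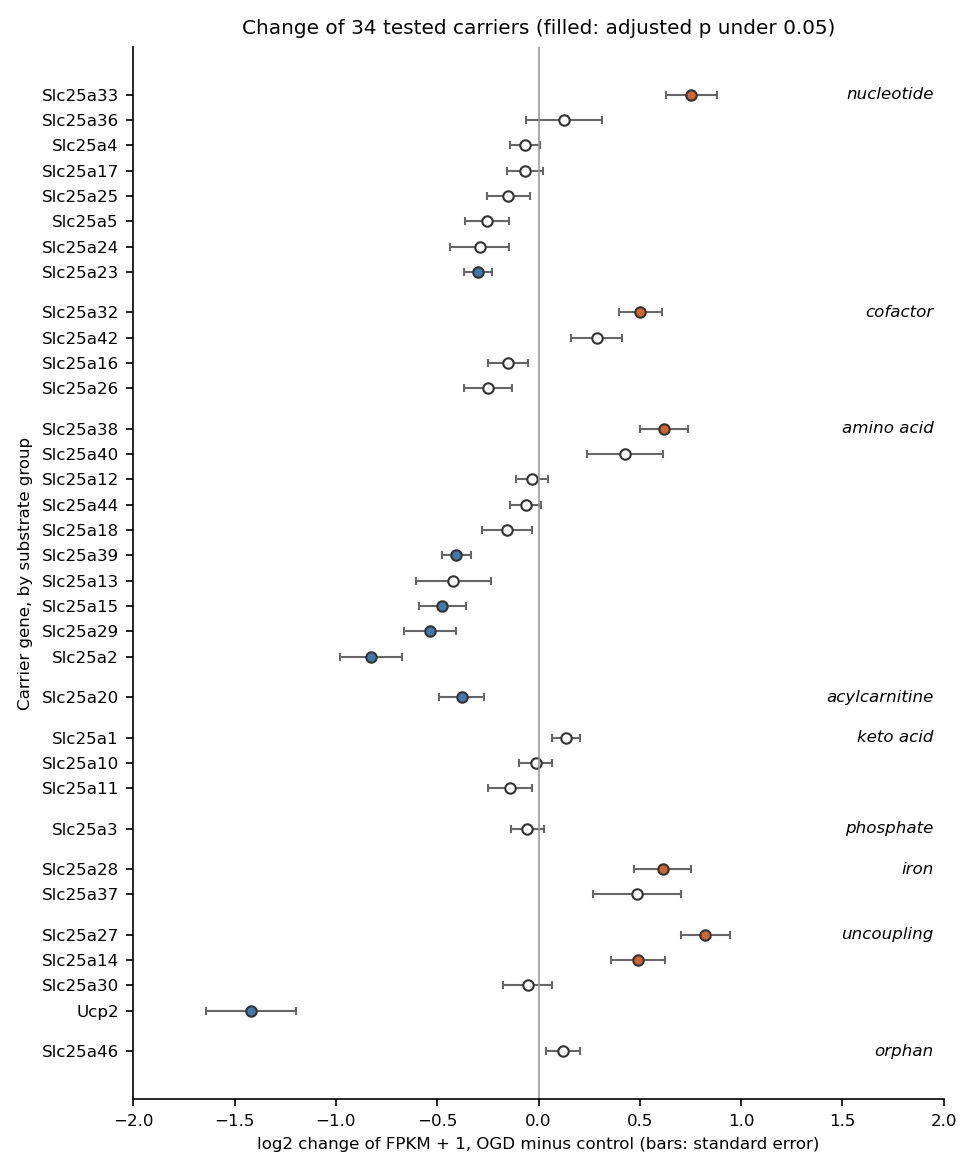
Log2 change of FPKM + 1 (OGD minus Control, horizontal axis) for 34 tested carriers, arranged by substrate group, with bars for the standard error and filled points for genes past the test. Of those plotted, Slc25a27 lies farthest to the right at 0.82 and Ucp2 farthest to the left at -1.42, while the keto acid and phosphate carriers lie within 0.15 of 0.

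The promoters of 42 of the 49 carriers were in the RefSeq table used here (build GRCr8, 250 bases before to 50 after the gene start). The core of the hypoxia response element, ACGTG on either strand, stood in 9 of these (21.4%) and in 19.7% of 27457 promoters of all genes. It was found in 1 of 5 promoters of rising carriers (Slc25a33), in 2 of 7 of falling carriers (Slc25a2 and Slc25a23) and in 3 of 16 of carriers that did not pass. The core of the ATF4 element, TGATGNAA on either strand, stood in 0 of the 42 and in 3.82% of all promoters, which says only that these letters are not in these windows. The 250 bases before the start of Slc25a33 (chr5:165502974-165503223, minus strand) and of Slc25a23 (chr9:1985366-1985615, minus strand) are shown because the same letters precede a carrier that rose and a carrier that fell. Capitals mark the core, which in Slc25a33 is read on both strands of the palindrome CACGTG and thereby also forms an E-box.
Slc25a33: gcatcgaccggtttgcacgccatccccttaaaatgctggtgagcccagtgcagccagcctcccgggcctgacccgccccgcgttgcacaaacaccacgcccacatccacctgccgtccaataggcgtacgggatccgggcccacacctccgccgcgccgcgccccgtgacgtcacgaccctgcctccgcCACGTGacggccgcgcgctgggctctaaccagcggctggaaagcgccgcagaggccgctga
Slc25a23: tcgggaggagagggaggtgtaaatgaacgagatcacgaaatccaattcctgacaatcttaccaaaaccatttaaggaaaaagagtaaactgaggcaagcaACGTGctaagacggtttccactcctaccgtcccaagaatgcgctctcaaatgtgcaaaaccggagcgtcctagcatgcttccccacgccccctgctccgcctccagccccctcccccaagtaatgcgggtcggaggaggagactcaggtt

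The ADP/ATP carriers dominated the family by level. Slc25a4 (ENSRNOG00000010830), the main ADP/ATP exchanger of excitable tissue, was at 444, 383, 395 and 402 FPKM in Control 1 to 4 against 373, 360.2, 402 and 416 FPKM in OGD 1 to 4. The groups overlapped, and the difference of -0.07 ± 0.07 (SE) on the log2 scale did not pass (limma, adjusted p = 0.487). It alone made up 38.8% to 40.6% of the summed FPKM of the 49 carriers in Control and 38.4% to 41.5% in OGD. With the phosphate carrier Slc25a3 and the second ADP/ATP exchanger Slc25a5, it made up 61.0% to 63.9% and 60.1% to 63.5%. All 49 together held 0.212% to 0.221% of all FPKM in Control and 0.196% to 0.239% in OGD libraries.

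Slc25a5 (ENSRNOG00000039980), the exchanger of dividing cells, was at 96.0, 80.2, 89.1 and 93.1 FPKM in Control against 71.8, 68.4, 67.2 and 94.8 FPKM in OGD. OGD 1 to 3 lay below every Control library and OGD 4 lay among them, and the log2 change of -0.25 ± 0.11 did not pass (limma, adjusted p = 0.0701). Without OGD replicate 4 it was -0.37 and without Control replicate 2 it was -0.31, and both passed (limma, adjusted p = 0.00212 and 0.0492, range over 17 alternatives 0.00212 to 0.280). Slc25a5 did not pass in 13 of the 17 alternatives. RefSeq lists 9 pseudogenes named after Slc25a5, so its value is uncertain. Slc25a31 was listed at 0 in every library and Slc25a6 in all but Control 4, where it was at 0.182 FPKM.

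**Figure D2:**
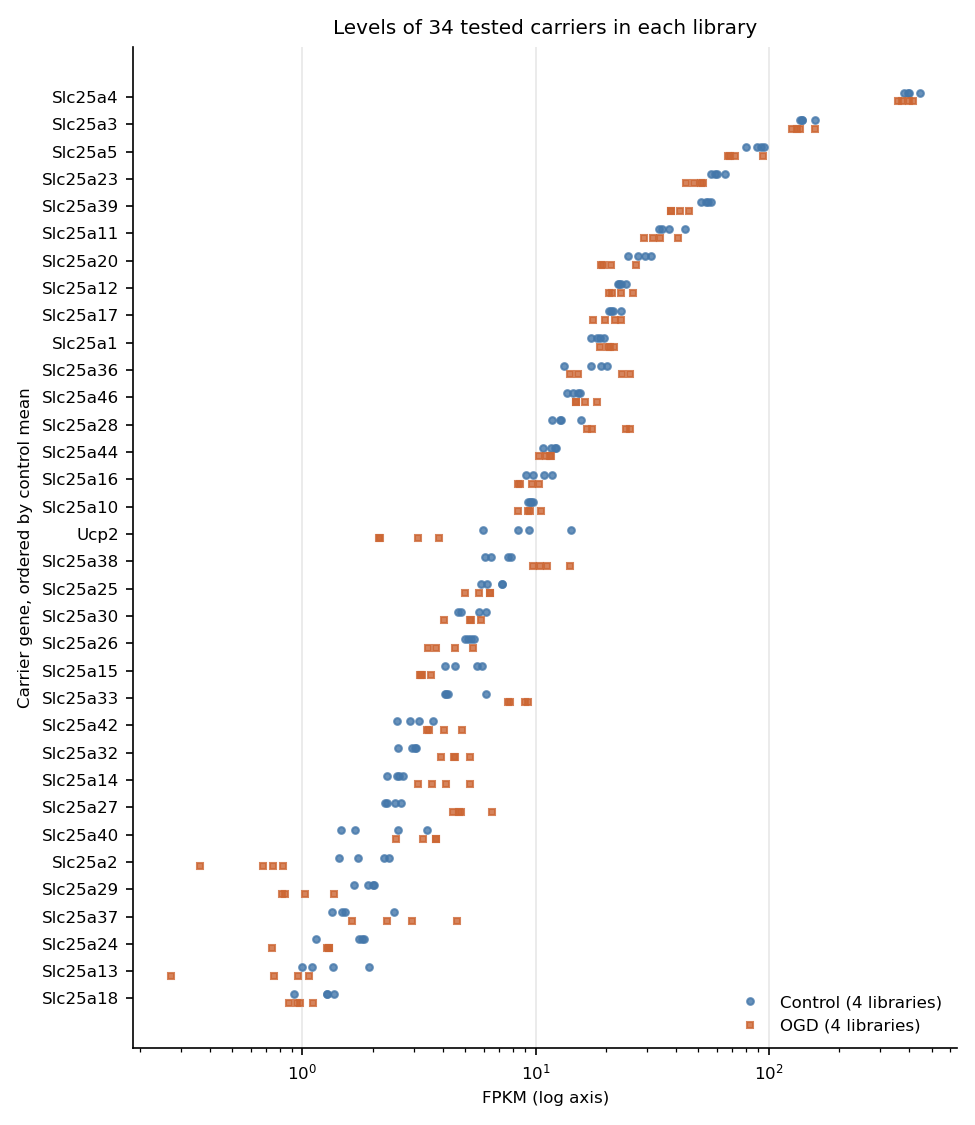
FPKM (horizontal log axis) of 34 tested carriers in each of 4 Control libraries (circles) and 4 OGD libraries (squares), ordered by the Control mean. Levels span from Control means of 1.21 FPKM for Slc25a18 to 406 FPKM for Slc25a4, and for Slc25a4, Slc25a3 and Slc25a5 the groups overlap.

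The calcium-regulated carriers exchange ATP-Mg for phosphate and so set the adenine nucleotide content of the matrix. Slc25a23 (ENSRNOG00000047781) was the most abundant of them, at 60.3, 59.1, 65.2 and 56.6 FPKM in Control against 51.2, 48.0, 52.2 and 44.3 FPKM in OGD. No OGD library reached the lowest Control library, and it changed by -0.30 ± 0.07 on the log2 scale (SE; limma, adjusted p = 0.00529). Slc25a25 was at 7.20, 7.20, 6.22 and 5.85 FPKM in Control against 6.40, 4.97, 5.75 and 6.39 FPKM in OGD, without passing (limma, adjusted p = 0.262). Slc25a24 was low, at 1.15, 1.81, 1.84 and 1.75 FPKM in Control and 1.28, 1.30, 0.743 and 1.30 FPKM in OGD (limma, adjusted p = 0.124). The fourth relative, Slc25a41, was listed at 0 throughout.

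Of the pyrimidine nucleotide carriers, Slc25a33 rose and Slc25a36 did not pass. Slc25a33 (ENSRNOG00000016949), which brings pyrimidine nucleotides in for mitochondrial DNA and RNA synthesis, was at 6.10, 4.20, 4.12 and 4.08 FPKM in Control against 8.98, 7.63, 7.81 and 9.27 FPKM in OGD. Control 1 was the highest of its group, yet every OGD library lay above it. The mean went from 4.63 ± 0.986 to 8.42 ± 0.825 FPKM (SD, n = 4 each), with 0.75 ± 0.12 (SE) as the log2 change (limma, adjusted p = 0.000584). Slc25a36 was at 13.3, 19.1, 17.3 and 20.3 FPKM in Control against 23.5, 25.4, 14.1 and 15.3 FPKM in OGD. OGD 1 and OGD 2 lay above the Control range and OGD 3 and OGD 4 within it (limma, adjusted p = 0.607). Slc25a17, a peroxisomal carrier of CoA and related nucleotides, ranged from 20.6 to 23.2 FPKM in Control and from 17.6 to 23.2 FPKM in OGD (limma, adjusted p = 0.557).

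Among the carriers of cofactors, Slc25a32 (ENSRNOG00000004403), which carries folate and flavin cofactors into mitochondria, was at 2.94, 3.04, 3.07 and 2.57 FPKM in Control against 5.26, 3.94, 4.51 and 4.48 FPKM in OGD. The groups did not overlap, and it rose by 0.50 ± 0.11 on the log2 scale (SE; limma, adjusted p = 0.00254). In the same libraries Mthfd2 and Mthfd1l, mitochondrial enzymes of the folate pathway, rose by 2.13 and 0.75 on that scale. Shmt2, which loads folate in the matrix, rose by 1.01. These enzymes were picked by smallest p among the rising genes of their lists, in which as many genes fell as rose. Of all tested genes, 22.7% rose.

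The CoA carrier Slc25a42 was at 3.15, 2.89, 2.54 and 3.62 FPKM in Control against 4.04, 4.86, 3.42 and 3.50 FPKM in OGD, and did not pass (limma, adjusted p = 0.0800). Slc25a16, also linked to CoA, was at 9.78, 9.14, 11.8 and 10.9 FPKM in Control against 10.4, 8.41, 8.62 and 9.65 FPKM in OGD (limma, adjusted p = 0.227). The importer of S-adenosylmethionine, Slc25a26, was at 5.44, 4.97, 5.31 and 5.11 FPKM in Control against 3.75, 5.38, 4.50 and 3.47 FPKM in OGD (limma, adjusted p = 0.104). OGD 2 was within its Control range and the other OGD libraries lay below. Without OGD replicate 2 the log2 change of Slc25a26 was -0.34 and passed (limma, adjusted p = 0.0245, range over 17 alternatives 0.0245 to 0.336). Slc25a26 did not pass in 16 of the 17 alternatives. The NAD carrier Slc25a51 was listed at 0 in all but Control 3, at 0.0328 FPKM.

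Of 10 tested amino acid carriers, 4 fell, 1 rose and 5 did not pass, beside 26.8% of all tested genes falling and 22.7% rising. Slc25a2 (ENSRNOG00000027359), an ornithine carrier, was at 2.35, 1.74, 2.24 and 1.43 FPKM in Control against 0.746, 0.679, 0.364 and 0.823 FPKM in OGD, with a difference on the log2 scale of -0.83 ± 0.15 (SE; limma, adjusted p = 0.00112). It was the single carrier that passed the filter through its Control libraries alone, so it had to differ. The gene it overlaps in RefSeq is Taf7. Slc25a15 (ENSRNOG00000011881), the main ornithine carrier, was between 4.09 and 5.89 FPKM in Control and between 3.18 and 3.56 FPKM in OGD, without overlap. It changed by -0.47 ± 0.12 on the log2 scale (SE; limma, adjusted p = 0.00603). Slc25a29 (ENSRNOG00000004351), which carries basic amino acids such as arginine and lysine, was at 2.02, 2.00, 1.91 and 1.66 FPKM in Control against 0.816, 1.36, 0.840 and 1.03 FPKM in OGD. Again every OGD library was lower, and it changed by -0.53 ± 0.13 on that scale (SE; limma, adjusted p = 0.00545).

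The glutathione carrier Slc25a39 (ENSRNOG00000020994) was the fourth falling member and by far the most abundant amino acid or peptide carrier. It was at 55.2, 51.3, 54.0 and 56.9 FPKM in Control against 38.0, 38.1, 41.9 and 45.4 FPKM in OGD. The groups did not overlap, and the difference on the log2 scale was -0.41 ± 0.07 (SE; limma, adjusted p = 0.000877). RefSeq lists 8 pseudogenes named after it. Its relative Slc25a40 was at 1.46, 2.57, 3.42 and 1.68 FPKM in Control against 3.74, 3.74, 2.51 and 3.31 FPKM in OGD, and did not pass (limma, adjusted p = 0.0790). Without Control replicate 3 its log2 change was 0.58 and passed (limma, adjusted p = 0.0185, range over 16 alternatives 0.0185 to 0.242). Slc25a40 did not pass in 14 of the 16 alternatives.

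Slc25a38 (ENSRNOG00000018552), which imports glycine for the start of heme synthesis, was the amino acid carrier that rose. It was at 7.63, 6.09, 7.87 and 6.45 FPKM in Control against 10.5, 11.2, 9.77 and 14.0 FPKM in OGD. All OGD libraries were higher, and the difference on the log2 scale was 0.62 ± 0.12 (SE; limma, adjusted p = 0.00146). Alas1, the enzyme that joins this glycine to succinyl-CoA, went from 11.4 ± 2.13 to 17.5 ± 1.09 FPKM (SD, n = 4 each), a rise of 0.59 on the log2 scale (limma, adjusted p = 0.00174), and was singled out after its values were seen.

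The aspartate/glutamate carrier Slc25a12 was at 22.9, 24.4, 22.6 and 23.3 FPKM in Control against 20.7, 23.2, 26.1 and 21.4 FPKM in OGD, on both sides of the Control range (limma, adjusted p = 0.770). Its relative Slc25a13 was at 1.00, 1.93, 1.10 and 1.36 FPKM in Control against 0.958, 0.272, 1.07 and 0.755 FPKM in OGD (limma, adjusted p = 0.0820). Slc25a44, which imports branched-chain amino acids, ranged from 10.8 to 12.2 FPKM in Control and from 10.3 to 11.7 FPKM in OGD. The glutamate carrier Slc25a18 ranged from 0.925 to 1.36 and from 0.879 to 1.12 FPKM. Neither passed (limma, adjusted p = 0.509 and 0.320). The other glutamate carrier, Slc25a22, was listed at 0 in all 8 libraries. The same was true of Nfs1, the iron-sulfur cysteine desulfurase that most cells use, so a value of 0 in this table may be a failed estimate.

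**Figure D3:**
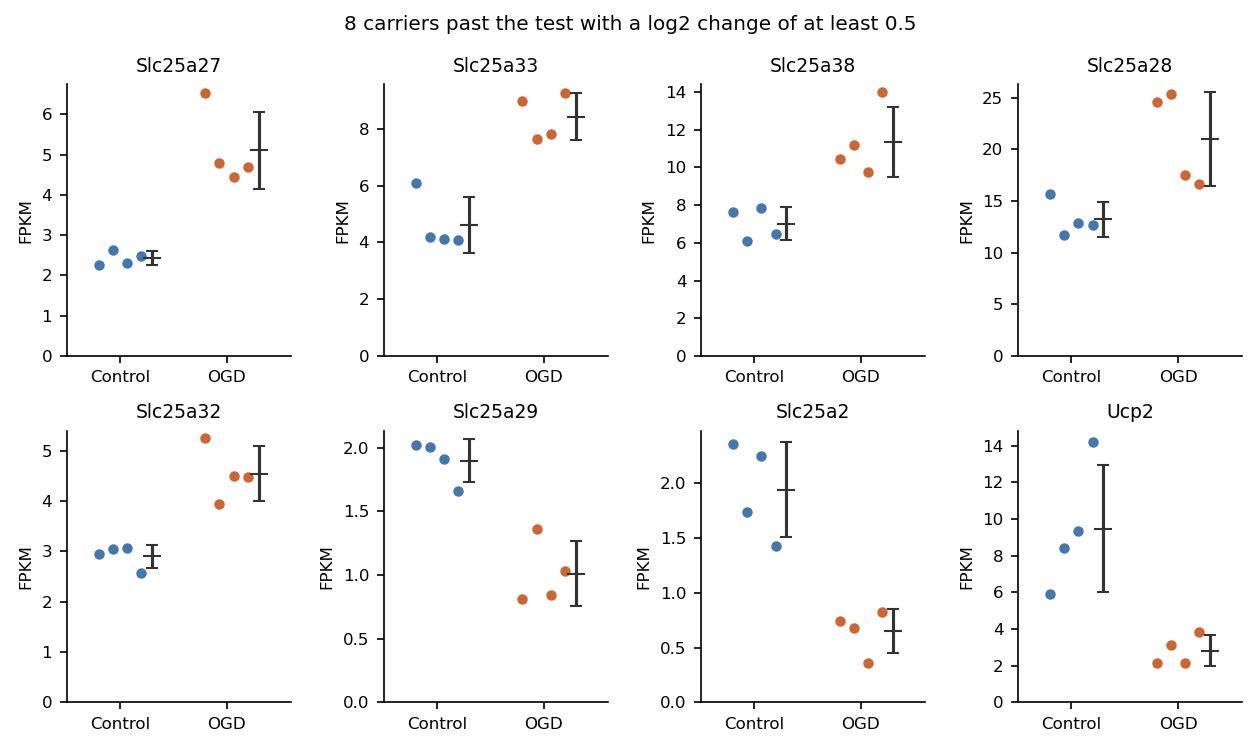
FPKM in each library (points, linear axes from 0) of 8 carriers past the test with a log2 change of at least 0.5, with the mean and SD of 4 libraries to the right of each group. In all 8 the Control and OGD points do not overlap, with OGD higher in 5 and lower in Slc25a29, Slc25a2 and Ucp2. The 8 were chosen by the test, so separation is largely built in. Slc25a2 passed the filter through Control libraries alone and so had to differ.

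Slc25a20 (ENSRNOG00000020288), which exchanges carnitine for acylcarnitines and so admits long-chain fatty acids to the matrix, was lower in OGD. It was at 31.4, 24.8, 29.5 and 27.5 FPKM in Control against 19.1, 19.4, 21.1 and 27.01 FPKM in OGD. OGD 4 lay within the Control range and the other 3 below it, and the difference on the log2 scale was -0.38 ± 0.11 (SE; limma, adjusted p = 0.0157). Among the enzymes that work on carnitine, Cpt2 and Cpt1a, carnitine palmitoyltransferases, fell by 1.11 and 0.71 on the log2 scale. Crat, the carnitine acetyltransferase, rose by 0.66 and Cpt1c, a brain relative of Cpt1a, by 0.42, both singled out after their values were seen.

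No keto acid or phosphate carrier passed the test. Slc25a11, the oxoglutarate/malate carrier of the malate-aspartate shuttle, was at 37.5, 33.9, 34.8 and 43.6 FPKM in Control against 34.1, 29.1, 31.8 and 40.9 FPKM in OGD (limma, adjusted p = 0.302). The citrate carrier Slc25a1 was at 18.9, 18.3, 17.3 and 19.6 FPKM in Control against 18.9, 20.4, 20.9 and 21.6 FPKM in OGD (limma, adjusted p = 0.134). The dicarboxylate carrier Slc25a10 was at 9.49, 9.26, 9.73 and 9.60 FPKM in Control against 10.6, 9.33, 8.45 and 9.44 FPKM in OGD (limma, adjusted p = 0.907). In each the groups overlapped. The oxodicarboxylate carrier Slc25a21 was above 0 in Control 3 and OGD 1 alone, at 0.0661 and 0.0790 FPKM. Slc25a3 (ENSRNOG00000008289), which brings in the phosphate for ATP synthesis, was at 159, 139, 136 and 139 FPKM in Control against 126, 136, 133 and 158 FPKM in OGD. Control 1 and OGD 4 stood above the rest of their groups, and the log2 change of -0.05 ± 0.08 did not pass (limma, adjusted p = 0.604).

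Both mitoferrins, which take iron into the matrix for heme and iron-sulfur clusters, had higher means in OGD, and Slc25a28 passed the test. Slc25a28 (ENSRNOG00000016751) was at 15.6, 11.7, 12.8 and 12.7 FPKM in Control against 24.5, 25.3, 17.5 and 16.6 FPKM in OGD. OGD 1 and OGD 2 were far above Control and OGD 3 and OGD 4 just above it, with a difference on the log2 scale of 0.61 ± 0.14 (SE; limma, adjusted p = 0.00438). Slc25a36 was split between the same OGD libraries, which also differed in depth and mitochondrially encoded share. The part of that difference in these splits was not tested. Slc25a37, the mitoferrin best known from red cell precursors, was at 1.52, 1.47, 2.47 and 1.33 FPKM in Control against 2.95, 4.60, 2.31 and 1.64 FPKM in OGD. Control 3 was above 2 of the OGD libraries, and the log2 change of 0.48 ± 0.22 did not pass (limma, adjusted p = 0.0870). Without OGD replicate 4 it was 0.65 and passed, and without Control replicate 3 it was 0.61 and passed (limma, adjusted p = 0.0199 and 0.0490, range over 16 alternatives 0.0199 to 0.224). Slc25a37 did not pass in 12 of the 16 alternatives.

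The uncoupling proteins and their relatives went in both directions. Ucp2 (ENSRNOG00000017854), which dissipates or moderates the proton gradient and exports small carbon acids, was at 5.93, 8.41, 9.34 and 14.2 FPKM in Control against 2.13, 3.15, 2.16 and 3.86 FPKM in OGD. The highest OGD library was below the lowest Control library. The mean FPKM was 3.35-fold lower in OGD, from 9.46 ± 3.46 to 2.82 ± 0.836 FPKM (SD, n = 4 each), and the difference on the log2 scale was -1.42 ± 0.22 (SE; limma, adjusted p = 0.000423). Ucp2 is known to be abundant in microglia and other immune cells, and the microglial markers fell in the same libraries. Their sum was 200.6, 229.3, 203.4 and 328.6 FPKM in Control and 71.5, 85.9, 64.9 and 119.2 FPKM in OGD. In a comparison made after the values were seen, Ucp2 amounted to 2.95%, 3.67%, 4.59% and 4.32% of that sum in Control 1 to 4 and to 2.98%, 3.66%, 3.33% and 3.24% in OGD 1 to 4, so the groups overlapped on this measure. Control 4 was highest in both Ucp2 and the marker sum, as was OGD 4 within its group. In bulk samples, fewer cells of a type and less RNA per cell cannot be told apart, and the part of the microglial change in that of Ucp2 was not tested.

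**Figure D4:**
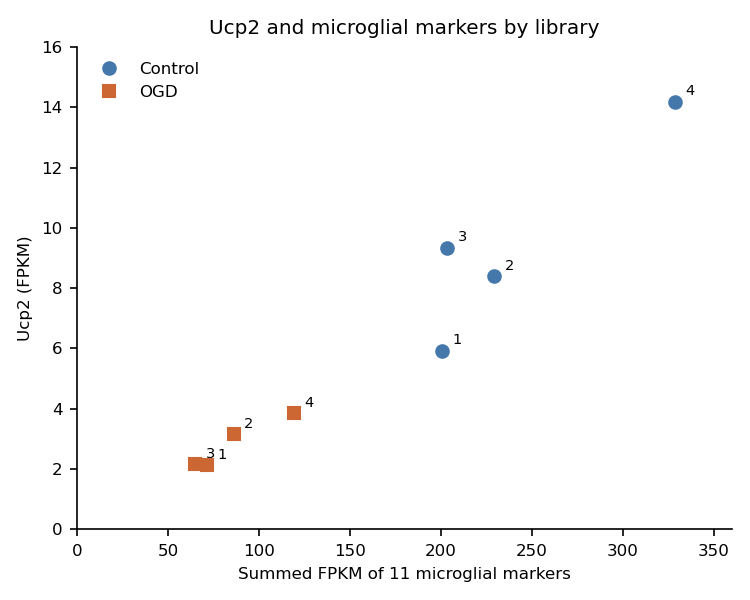
Ucp2 (FPKM, vertical axis) against the summed FPKM of 11 microglial markers in each library, Control as circles and OGD as squares, numbered by replicate. Both values are lower in every OGD library than in every Control library, and Control 4 is highest on both axes at 14.2 and 328.6 FPKM.

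The brain-enriched relatives moved the opposite way. Slc25a27 (ENSRNOG00000010592), also called Ucp4, was at 2.26, 2.64, 2.32 and 2.49 FPKM in Control against 6.53, 4.80, 4.43 and 4.69 FPKM in OGD. Every OGD library was above Control, the mean FPKM was 2.11-fold higher, and the difference on the log2 scale was 0.82 ± 0.12 (SE; limma, adjusted p = 0.000265). Slc25a14 (ENSRNOG00000006871), the brain mitochondrial carrier, was at 2.71, 2.54, 2.60 and 2.30 FPKM in Control against 3.58, 5.26, 4.14 and 3.12 FPKM in OGD. It rose by 0.49 ± 0.13 on the log2 scale, again without overlap (SE; limma, adjusted p = 0.0106). Of the 7 neuronal markers, Tubb3 and Syt1 rose in the same libraries without overlap, by 0.79 and 0.58 on the log2 scale (limma, adjusted p = 0.000192 and 0.000678). Snap25 and Syn1 fell, by 0.24 and 0.32 (limma, adjusted p = 0.0451 and 0.00415). Map2, which made up most of their summed level, did not pass (limma, adjusted p = 0.243), and the part of these markers in the rise of Slc25a27 and Slc25a14 was not tested. Slc25a30 was at 4.80, 4.64, 6.13 and 5.73 FPKM in Control against 4.04, 5.24, 5.27 and 5.85 FPKM in OGD (limma, adjusted p = 0.736). Ucp3 was above 0 in OGD 2 and OGD 4 alone, at 0.0537 and 0.0371 FPKM.

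Among carriers with no settled substrate, Slc25a46, an outer membrane protein that shapes mitochondria, was the single member tested. It was at 15.2, 13.7, 14.5 and 15.5 FPKM in Control against 15.0, 14.9, 16.3 and 18.4 FPKM in OGD (limma, adjusted p = 0.246). Slc25a35 was between 0.786 and 1.58 FPKM in Control and between 0.316 and 1.03 FPKM in OGD, under the filter. Slc25a34, Slc25a43, Slc25a45 and Slc25a47 never exceeded 0.401 FPKM, and Slc25a48 and Slc25a54 were listed at 0 throughout. In all, 5 of the 49 were listed at 0 in every library and 9 had values under the filter.

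The 7 rising carriers had Control means of 2.43 to 13.2 FPKM and the 7 falling ones of 1.90 to 60.3 FPKM. The spread between libraries was larger in OGD for 29 of the 35, with a median coefficient of variation of 9.90% in Control and 14.9% in OGD. The same values were not computed over all tested genes, so this spread is not shown to be particular to the carriers.

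Because carriers of the same substrate came out on different sides of the test, the ratio of 2 related carriers was compared directly within each library. Of 11 pairs, 10 had both members above the filter. None passed an exact two-sided permutation test of 4 against 4 libraries after Benjamini-Hochberg adjustment over the 10 pairs, where the smallest p the design allows is 0.0286 and at least 6 pairs would have to reach it for any to pass. The ratio of Slc25a39 to Slc25a40 was lower in every OGD library than in every Control library. Its log2 value went from 4.12 ± 0.426 to 3.28 ± 0.284 (SD, n = 4 each), a difference of -0.83 (exact permutation p = 0.0286, adjusted p = 0.143). The ratio of Slc25a42 to Slc25a16 was higher in every OGD library, by 0.44 on the log2 scale (exact permutation p = 0.0286, adjusted p = 0.143). Slc25a40, Slc25a42 and Slc25a16 each overlap another gene in RefSeq, so both ratios are uncertain.

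The remaining 8 pairs overlapped between the groups. The ratio of Slc25a33 to Slc25a36 differed by 0.63 (exact permutation p = 0.114, adjusted p = 0.190), so a different response of the pyrimidine carriers was not shown. For the mitoferrins, Slc25a37 against Slc25a28, the difference was -0.13 (exact permutation p = 0.543, adjusted p = 0.603). For Slc25a14 against Slc25a30 it was 0.54 and for Slc25a12 against Slc25a13 it was 0.39 (exact permutation p = 0.0857 for each, adjusted p = 0.190). Slc25a4 stood at 2.17 ± 0.0642 above Slc25a5 on the log2 scale in Control and at 2.36 ± 0.181 in OGD (SD, n = 4 each; exact permutation p = 0.114, adjusted p = 0.190). The ratio of Slc25a10 to Slc25a11 differed by 0.13, and those of Slc25a24 to Slc25a25 and to Slc25a23 by -0.14 and 0.01 (exact permutation p = 0.343, 0.429 and 0.943, adjusted p = 0.490, 0.536 and 0.943).

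**Figure D5:**
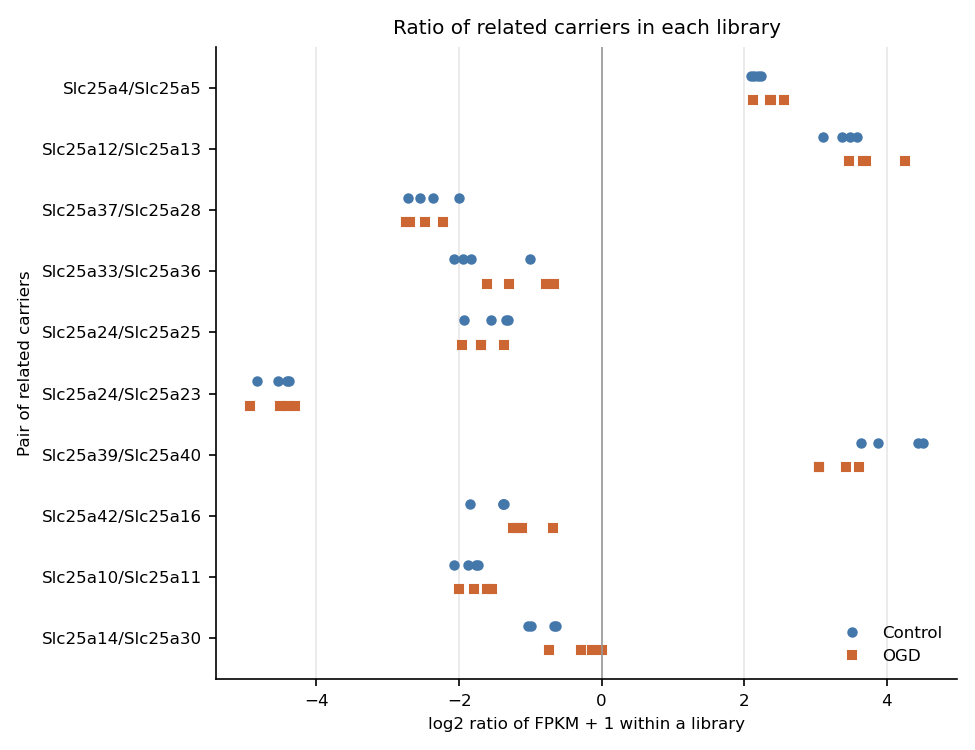
Log2 ratio of FPKM + 1 of related carriers (horizontal axis) in each of 4 Control libraries (circles) and 4 OGD libraries (squares), for 10 pairs. The groups separate for Slc25a39/Slc25a40 and Slc25a42/Slc25a16 and overlap for the other 8 pairs.

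Other mitochondrial transport genes and the enzymes that use the carried solutes were read from the same fit, beside 22.7% of all tested genes rising and 26.8% falling. Of 19 tested channels, transporters and receptors of the mitochondrial membranes outside the family, 9 fell and 0 rose, with a median log2 change of -0.23. Sfxn3, a sideroflexin, fell from 14.1 ± 1.31 to 7.43 ± 0.738 FPKM, and Micu2, a gatekeeper of the calcium uniporter, from 26.8 ± 1.25 to 18.4 ± 2.61 FPKM (SD, n = 4 each). Of 13 genes that import carrier proteins through the TOM and TIM22 complexes, 4 fell and 0 rose, with a median of -0.25. Tomm40, the outer membrane pore, fell from 32.5 ± 1.89 to 21.3 ± 2.31 FPKM and Tomm22, its receptor partner, from 82.8 ± 9.39 to 64.3 ± 6.94 FPKM. With 1 library left out, 2 of these 13 fell in several cases (without Control replicate 1 or 4, or OGD replicate 2 or 3), as with no filter on low values.

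Of 15 enzymes of the amino and keto acids, 4 rose, 4 fell and 7 did not pass, with a median of -0.01. Shmt2, the mitochondrial serine hydroxymethyltransferase, rose from 32.7 ± 2.78 to 66.8 ± 2.27 FPKM, and Got1, the cytosolic aspartate aminotransferase, from 16.3 ± 1.15 to 31.2 ± 1.79 FPKM (SD, n = 4 each). Ogdh, a subunit of oxoglutarate dehydrogenase, fell by 0.36 and Mdh2, the mitochondrial malate dehydrogenase, by 0.29 on the log2 scale. Of 12 genes of iron-sulfur cluster and heme synthesis, 2 rose, 7 fell and 3 did not pass, with a median of -0.26. Cpox and Ppox, late enzymes of heme synthesis, rose by 0.65 and 0.50, while Fech, which inserts the iron, fell by 0.41 and Isca2, a cluster assembly factor, by 0.38. Of 17 genes of carnitine, CoA and folate metabolism, 7 rose, 7 fell and 3 did not pass, with a median of -0.17. Mthfd2 went from 8.32 ± 0.669 to 39.9 ± 2.33 FPKM and Mthfd1l from 5.76 ± 0.435 to 10.4 ± 0.319 FPKM. Cpt2, the enzyme on the matrix side, fell from 6.04 ± 0.222 to 2.27 ± 0.410 FPKM and Cpt1a, the carnitine palmitoyltransferase of the outer membrane, from 3.13 ± 0.0768 to 1.52 ± 0.176 FPKM.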

How the data were processed

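RNA was extracted with an RNeasy kit and libraries were made with an Agilent SureSelect strand-specific kit, per the labels' protocols. Per the submitters' processing notes, Trimmomatic and FastQC were used with rn6 (Rnor_6.0) as build. How reads were aligned, which program and annotation gave FPKM, and whether strand was used: not given in the sources used here. The authors deposited a single FPKM table, per the file headers with 1 column for each sample.

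A gene was tested if 4 or more samples reached 1 FPKM (11149 genes). The test on log2(FPKM + 1) was limma (version 3.58.1, R 4.3.3) with a group term alone and a trended prior. The procedure was also run on simulated data in which few genes changed, unlike these data, so that run does not gauge the error rate here. The members, substrate groups, pairs and lists were chosen with earlier results of these data known; Slc25a6 was put in its substrate group once the table was seen. Every carrier was to be named; 1 that passed the test enters the counts and summed levels but is not reported here or plotted. Values per library were given for carriers past the test with a log2 change of at least 0.5, for the 2 most abundant of each substrate group and for members of pairs. In each list the 2 genes of smallest p in each direction were named, or the 2 highest markers. List symbols absent from the table were matched by older symbols, and 3 stayed unmatched.

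Relative depth came from genes of at most 0.5 FPKM, of which 75.9% to 79.0% of ratios to Control 1 were ratios of small whole numbers within 0.01 on the log2 scale. No interval from counts could be made. No 2 libraries held identical values. Gene positions of rn6 were not used here; promoters, overlaps and pseudogenes are from RefSeq (GRCr8). Alternatives were other normalizations, filters on low values, 0.1 as pseudocount, an untrended limma prior, a block on replicate number, and libraries left out. Python 3.11.15 with numpy 2.4.6, pandas 2.3.3 and matplotlib 3.10.9 served for tables and plots.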

Additional observations from a re-analysis of the deposited data

Results flagged for a closer look

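The 35 tested carriers gave 70 groups of 4 libraries, and in 6 of these a single library was set apart by Dixon's test. Chance flags about 1 in 20 groups, or about 3.5 here. For Slc25a5, OGD 4 was at 94.8 FPKM and the others at 67.2 to 71.8 FPKM. For Slc25a33, Control 1 was at 6.10 FPKM and the others at 4.08 to 4.20 FPKM. For Slc25a24, Control 1 was at 1.15 FPKM against 1.75 to 1.84 FPKM, and OGD 3 at 0.743 FPKM against 1.28 to 1.30 FPKM. For Slc25a3, Control 1 was at 159 FPKM and the others at 136 to 139 FPKM. For Slc25a37, Control 3 was at 2.47 FPKM and the others at 1.33 to 1.52 FPKM. Control 1 accounted for 3 of the 6.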

How the results depend on the processing

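Over 17 alternatives, 557 refitted carrier changes kept their side of the test. In 9 of these the sign was opposite, all for carriers that passed neither way (Slc25a3, Slc25a10, Slc25a12, Slc25a17, Slc25a30 and Slc25a36). In 12 more refits, Slc25a5, Slc25a26, Slc25a37, Slc25a40 or Slc25a42 passed with the direction kept. With a filter of 5 FPKM 23 carriers were tested and 4 rose and 4 fell, because fewer genes passed the filter. Leaving out single libraries gave 7 to 9 rising and 6 to 8 falling carriers; Slc25a2 was not tested without any 1 Control library. Without Control replicate 1 and OGD replicate 4 there were 8 and 7. Pairing by replicate number was not seen, though so few samples cannot exclude it. Deviations of same-numbered samples correlated at -0.22, 0.16, 0.01 and 0.09, and 2 of 8 samples correlated best with their own number. With the replicate block 7 carriers rose and 8 fell, Slc25a5 being the addition. Quantile normalization gave 10 and 7. Over 10 pairs the exact test has too few regroupings for alternatives to say anything about the stability of the ratios of related carriers. Absolute depth is unknown, which limits carriers near 1 FPKM most.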
